A study of Mus musculus with 20 samples.

Results

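Chemokine ligand genes were followed in keratinocytes sorted from mouse skin. The members were all rows of the count table whose symbol begins with Ccl or Cxcl and a number, together with Cx3cl1. This rule took 38 of 25719 genes: 24 Ccl genes, 13 Cxcl genes and Cx3cl1. A member was counted as detected when it had 3 or more reads in at least 5 of the 20 libraries, and 18 members met this. Of all genes in the table, 57.1% met it.

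Chemokines are small secreted proteins that draw leukocytes along a gradient by binding G-protein-coupled receptors on them. Keratinocytes are a known source of several: Ccl27a and Cxcl14 are made by resting epidermis, Ccl20 and Cxcl1 are induced by cytokines such as IL-17, IL-1 and TNF, and Cxcl9, Cxcl10 and Cxcl11 are induced by interferons. Cxcl16 and Cx3cl1 are made as membrane proteins and shed by proteases. Glucocorticoids are known repressors of many inflammatory chemokines.

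The mice carried floxed Cyp11b1 alleles (Cyp11b1 L2/L2). Cyp11b1 encodes the enzyme that makes corticosterone in its last step. The conditional knockout mice (cKO) also carried K14-CreERTam, a Cre recombinase that tamoxifen activates and that the keratin 14 promoter expresses in basal keratinocytes, and the controls were Cre-negative littermates with the same floxed alleles. All mice received tamoxifen on 5 days, and cells were taken from ear and dorsal skin on day 6. Topical groups had their back hair dry-shaved and received tamoxifen in ethanol, 20 µl on the ear and 100 µl on the back. Systemic groups received intraperitoneal injections of 100 µl of 10 mg/ml in oil and ethanol. Each of the 4 groups had 5 mice, and age is not given in the sources used here. Cre is present in the cKO mice alone, so the deletion and the Cre cannot be told apart. Likewise the route of tamoxifen cannot be told apart from shaving and the solvent.

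Library totals ran from 11.6 to 50.1 M counts, and 3 reads correspond to between 0.0599 and 0.259 CPM, that is, counts scaled to the total of a library. Cyp11b1 itself had 0 to 6 reads per library in every group, so this gene could not check the genotype labels. The sum of 8 keratinocyte markers lay between 79515 and 113319 CPM. Langerhans and dendritic cell markers summed to between 90.2 and 252 CPM, with Cd209a at 0 in all libraries of 3 groups. T-cell markers summed to at most 0.834 CPM and general leukocyte markers to at most 4.27 CPM, and the neutrophil genes Ly6g and Retnlg had no read in any library. In topical cKO 5 and systemic control 6, fibroblast markers summed to 32.0 and 20.8 CPM, against at most 9.88 CPM in the other libraries. Satellite-like predicted transcripts exceeded 50 CPM in 6 libraries, namely all 5 systemic controls and systemic cKO 2. In bulk RNA, fewer cells of a type and less RNA per cell cannot be told apart.

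**Figure D1:**
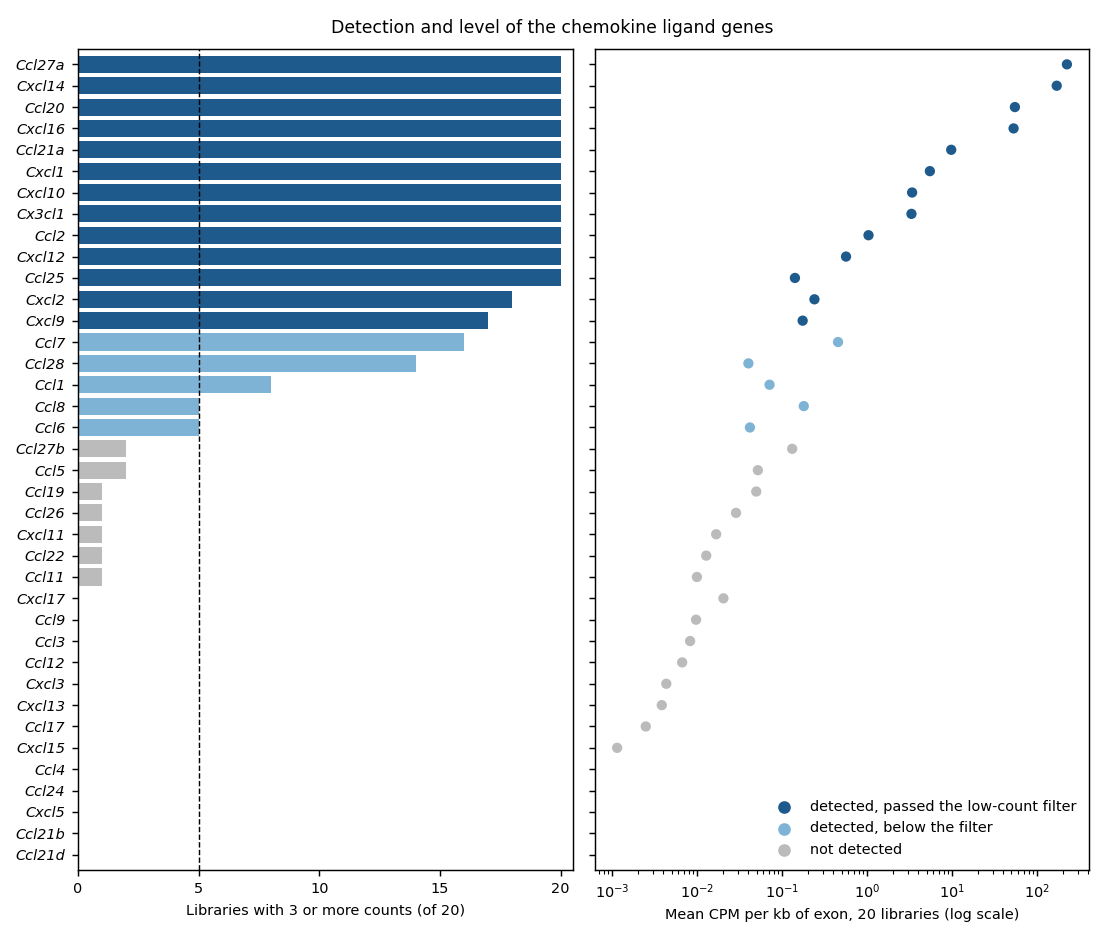
Number of libraries with 3 or more reads (left, of 20) and mean CPM per kb of exon on a log scale (right) for the 38 chemokine ligand genes. Dark blue genes passed the low-count filter, light blue ones were detected without passing it, and grey ones were not detected. The dashed line marks 5 libraries, and 11 genes reach it in all 20.

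The stretch of 250 bases upstream of the start of transcription is given for 5 members. They are Cxcl1 and Ccl20, which cytokines induce, Cxcl10, which interferons induce, and Cxcl12 and Ccl21a, which are known as constitutive chemokines of other tissues. The sequences are from RefSeq on GRCm38.p6 and run 5′ to 3′ on the strand of the gene. Capitals mark matches, on either strand, to an NF-kappaB consensus, to the interferon-stimulated response element (GAAA repeated after a gap of 2 bases) and to the AP-1 motif TGANTCA.

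Cxcl1, chr5:90890995-90891244, plus strand: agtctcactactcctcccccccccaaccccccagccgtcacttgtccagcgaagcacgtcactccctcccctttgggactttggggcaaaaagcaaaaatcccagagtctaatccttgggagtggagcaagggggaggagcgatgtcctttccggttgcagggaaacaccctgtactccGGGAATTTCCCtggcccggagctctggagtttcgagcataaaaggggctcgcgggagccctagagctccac

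Ccl20, chr1:83116516-83116765, plus strand: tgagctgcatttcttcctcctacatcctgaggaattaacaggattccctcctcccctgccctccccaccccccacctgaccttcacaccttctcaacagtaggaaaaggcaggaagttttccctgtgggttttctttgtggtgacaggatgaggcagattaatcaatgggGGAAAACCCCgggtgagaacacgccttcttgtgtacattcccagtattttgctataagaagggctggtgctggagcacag

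Cxcl10, chr5:92348890-92349139, minus strand: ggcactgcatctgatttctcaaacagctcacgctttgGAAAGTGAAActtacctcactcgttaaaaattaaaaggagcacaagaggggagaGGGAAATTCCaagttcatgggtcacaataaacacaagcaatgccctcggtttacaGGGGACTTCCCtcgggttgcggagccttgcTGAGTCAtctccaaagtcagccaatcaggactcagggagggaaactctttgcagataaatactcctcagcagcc

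Cxcl12, chr6:117168285-117168534, plus strand: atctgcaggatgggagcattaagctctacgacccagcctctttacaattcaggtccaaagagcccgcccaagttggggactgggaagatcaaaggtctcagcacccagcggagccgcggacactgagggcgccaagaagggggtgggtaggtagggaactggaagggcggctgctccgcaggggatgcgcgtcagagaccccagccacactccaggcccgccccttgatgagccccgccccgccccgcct

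Ccl21a, chr4:42773992-42774241, minus strand: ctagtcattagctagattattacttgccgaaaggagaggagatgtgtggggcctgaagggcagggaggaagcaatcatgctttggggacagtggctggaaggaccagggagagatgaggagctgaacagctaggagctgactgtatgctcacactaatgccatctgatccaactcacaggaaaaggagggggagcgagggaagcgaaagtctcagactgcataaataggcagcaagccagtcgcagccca

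The run of capitals in Cxcl1 holds 2 overlapping NF-kappaB matches, between 71 and 61 bases before the start. Ccl20 has 1 such match, 80 to 71 bases before the start. Cxcl10 has 3 NF-kappaB matches, of which 2 overlap, with the interferon-stimulated response element at 213 to 204 and AP-1 at 74 to 68 bases before the start. None of these letters occur in the windows of Cxcl12 and Ccl21a. Promoters were listed for 27 of the 38 members, with 33 entries. An NF-kappaB match was present in 7 of these 33 entries, those of Ccl1, Ccl9, Ccl20, Cxcl1, Cxcl2, Cxcl3 and Cxcl10, and in 7.25% of all 32851 promoters. The interferon-stimulated response element was present in 3 entries (Ccl19, Cxcl10 and Cxcl14) and in 2.98% of all promoters. AP-1 letters were found in 4 entries and in 6.75% of all. The glucocorticoid response element (GNACA and TGTNC around 3 bases) was found in no member promoter and in 0.387% of all.

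Of the 18 detected members, 10 were Ccl genes, 7 were Cxcl genes and 1 was Cx3cl1. A total of 13 passed the low-count filter and were tested. The most abundant per length was Ccl27a at a mean of 225 CPM per kb, followed by Cxcl14 at 170.4, Ccl20 at 54.9 and Cxcl16 at 52.9 CPM per kb. Ccl21a (9.76), Cxcl1 (5.48), Cxcl10 (3.38) and Cx3cl1 (3.33 CPM per kb) formed a lower tier. Ccl2 stood at 1.04, Cxcl12 at 0.565, Cxcl2 at 0.240, Cxcl9 at 0.174 and Ccl25 at 0.141 CPM per kb. Without scaling to length, Ccl27a gave 47.2% of the summed CPM of all members, Cxcl14 27.5%, Cxcl16 14.1% and Ccl20 6.89%, which left 4.29% for the other members.

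The genotype comparisons ask what loss of Cyp11b1 in keratinocytes does to each transcript under each route. Under topical tamoxifen, no chemokine passed an adjusted p of 0.05 in edgeR (0 of 13, against 0.129% of all 12424 genes tested) or in DESeq2 (0 of 13, against 0.338%). Ccl21a was the member whose groups did not overlap, with every topical cKO library above every topical control. Under systemic tamoxifen, 0 of 13 passed in edgeR, against 1.89% of all genes, and 1 of 13, Cxcl10, passed in DESeq2, against 4.78%. Cxcl10 was the member nearest to the edgeR threshold there, at an adjusted p of 0.0998.

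At an unadjusted p under 0.05 there were 3 members in the topical comparison (Ccl21a, Cxcl10 and Cxcl16), against 5.66% of all genes. The systemic comparison had 3 as well (Cxcl10, Ccl21a and Cxcl9), against 15.3%. The median log2 fold change of the 13 was 0.46 topically, beside 0.020 over all genes, and −0.17 systemically, beside −0.0045. The difference between the genotype effects of the routes, taken as systemic minus topical, passed for 0 of 13 members in edgeR, against 0.25% of all genes. There 3 members had an unadjusted p under 0.05 (Ccl21a, Cxcl12 and Ccl2), against 14.0%, and 1 of 13, Ccl21a, passed in DESeq2, against 2.69%.

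The route comparisons set systemic against topical mice of the same genotype. In controls, Cxcl12, a chemokine that retains stem cells and leukocytes through the receptor Cxcr4, was higher in systemic mice and was the 1 of 13 members called, against 18.3% of all genes (10.2% in that direction). In cKO mice, Ccl21a and the neutrophil attractant Cxcl1 were lower under systemic tamoxifen, 2 of 13 members against 9.22% of all genes (4.02% in that direction). The route groups of cKO mice did not overlap for 5 of the 13 members (Ccl20, Ccl21a, Cxcl1, Cxcl2 and Cxcl16), against 7.39% of all genes, and the systemic group was the lower in each. The median log2 fold change of the 13 members was 0.027 in controls, beside 0.00081 over all genes, and −0.21 in cKO mice, beside −0.013. Each group enters a genotype comparison and a route comparison, so the comparisons share samples.

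**Figure D2:**
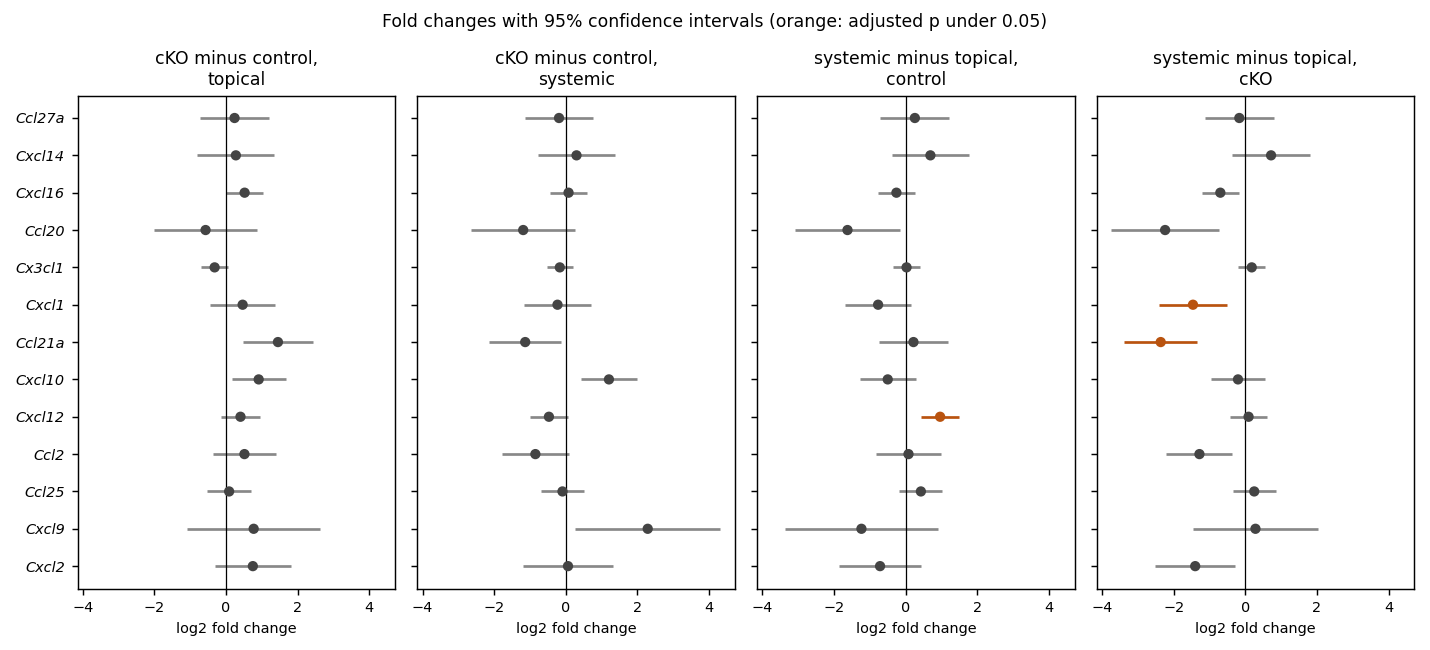
Log2 fold changes (points) with 95% confidence intervals (lines) of the 13 tested members in the genotype comparisons (cKO minus control) and the route comparisons (systemic minus topical). Orange marks an adjusted p under 0.05, which Cxcl12 reached in controls and Ccl21a and Cxcl1 reached in cKO mice. Intervals are widest for Cxcl9 and Ccl20.

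In the values below, libraries are given by replicate number: topical controls 1, 3, 5, 6 and 7, topical cKO 2, 3, 4, 5 and 7, systemic controls 1, 3, 4, 5 and 6, and systemic cKO 2, 4, 5, 6 and 7. Levels are CPM scaled with TMM factors, errors are SDs over the 5 mice, and SE is the standard error of a log2 fold change.

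**Figure D3:**
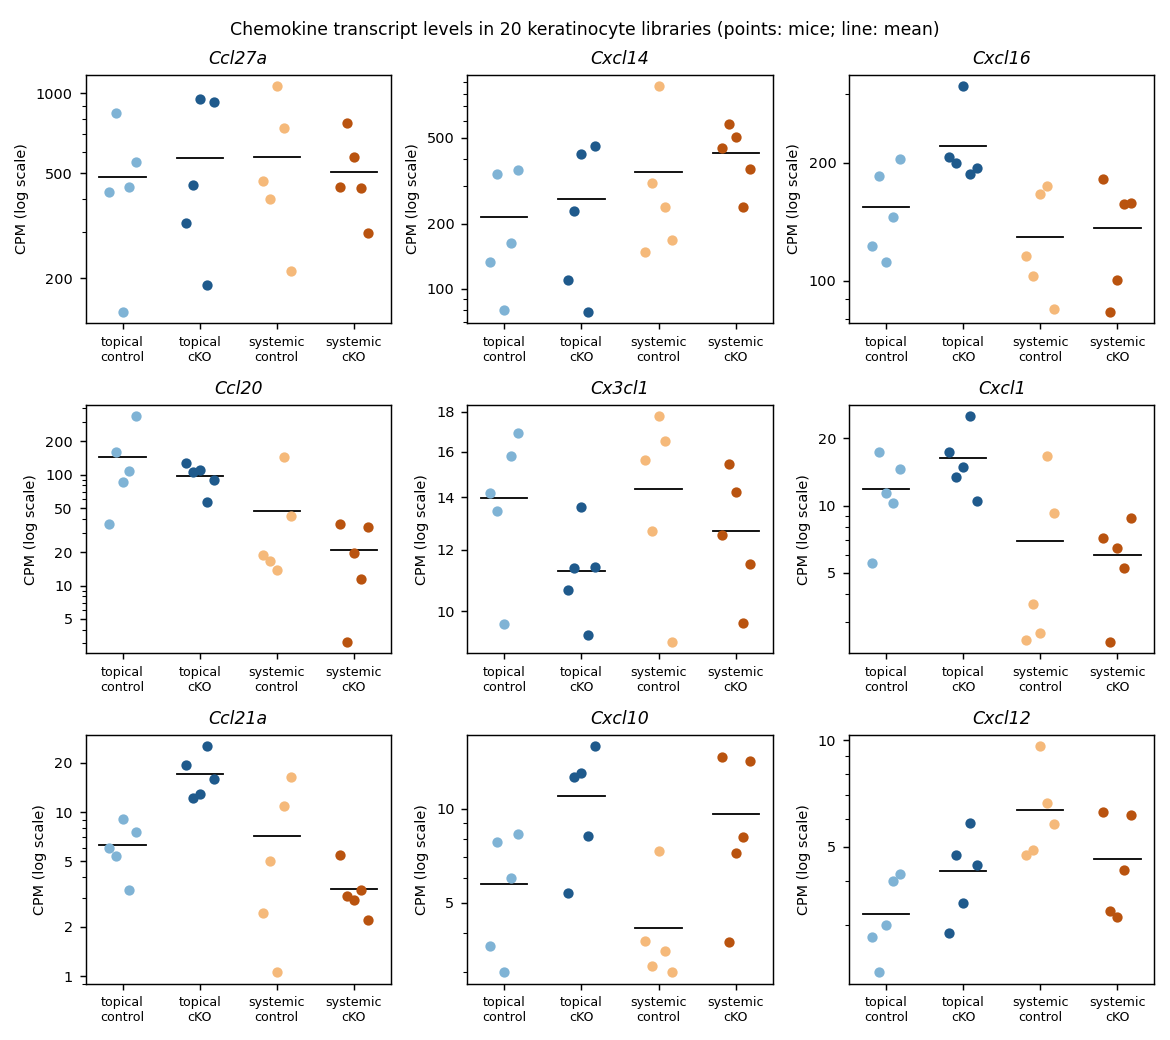
CPM of 9 members in each of 20 mice on log axes, with a line at the mean of each group of 5. Ccl21a is highest in topical cKO mice, whose libraries lie between 12.2 and 25.2 CPM, and Cxcl12 is highest in systemic controls, between 4.72 and 9.61 CPM. Ccl20 spans 3.08 to 339 CPM.

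The chemokines of resting epidermis came first in abundance. Ccl27a (ENSMUSG00000073888, chr4:41769467-41774247 on GRCm38, minus strand), a skin-homing signal for memory T cells through Ccr10, had 426, 843, 149, 443 and 549.9 CPM in topical controls, 323, 449.9, 951, 189 and 932 in topical cKO mice, 467, 399, 1069, 739 and 212 in systemic controls and 444, 774, 577, 439.9 and 296 in systemic cKO mice. All 4 groups overlapped, and the values within each group differed several-fold. The genotype comparison gave a log2 fold change of 0.24 topically (SE 0.46, 95% interval −0.72 to 1.20) and −0.19 systemically (−1.15 to 0.77), with adjusted p = 0.997 and 0.900, and the sign changed topically without topical cKO 4 (−0.018) or 7 (−0.012) and systemically without systemic control 4 (0.16). Of its 50-base stretches, 45.0% also occur in other annotated genes, mainly Ccl27b and related copies, and 8 exonic bases overlap Il11ra1 on the opposite strand, so its counts may hold or lack shared reads.

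Cxcl14, a monocyte and dendritic-cell attractant of normal epithelium (chr13:56288643-56296551), stood at 133, 339.98, 79.9, 163 and 354 CPM in topical controls, 109.6, 229.97, 422, 78.2 and 456 in topical cKO mice, 148, 308, 868, 239 and 168 in systemic controls and 449, 581, 504, 239 and 357 in systemic cKO mice. Its groups overlapped in every comparison. Systemic control 4, at 868 CPM, was far above its group, and without it the route difference in controls moved from 0.69 to 0.011 on the log2 scale. Fold changes were 0.28 for genotype topically, 0.30 for genotype systemically and 0.72 for route in cKO mice, each with SE 0.52 and adjusted p = 0.997, 0.847 and 0.434. The topical value turned negative without topical cKO 7 (−0.028).

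Both membrane-bound chemokines were present in every library. Cxcl16, the ligand of Cxcr6 on T cells and also a scavenger receptor (chr11:70453983-70459984), was measured at 123, 185, 112, 145 and 205 CPM in topical controls, 207, 200.5, 315, 187 and 194 in topical cKO mice, 116, 103, 167, 175 and 84.6 in systemic controls and 182, 83.1, 100.4, 157 and 158 in systemic cKO mice. The topical cKO libraries were all above every systemic cKO library, whereas they overlapped with the topical controls. The genotype difference was not called topically (log2 fold change 0.52, SE 0.25, adjusted p = 0.881) or systemically (log2 fold change 0.077, SE 0.25, adjusted p = 0.926, negative without systemic control 6 or systemic cKO 2). Nor was the route difference in cKO mice (log2 fold change −0.70, SE 0.25, adjusted p = 0.0852), although DESeq2 called it at an adjusted p of 0.0479. Without topical cKO 4 the adjusted p of this route difference was 0.225. Cxcl16 shares 552 exonic bases with Zmynd15 on the opposite strand, and whether the counting used strand is not given in the sources used here.

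Cx3cl1, or fractalkine, which attracts and tethers cells bearing Cx3cr1 (chr8:94772009-94782427), had 14.2, 13.5, 9.62, 15.8 and 16.9 CPM in topical controls, 10.7, 11.4, 13.6, 9.34 and 11.4 in topical cKO mice, 15.6, 12.7, 17.8, 16.5 and 9.14 in systemic controls and 12.5, 15.4, 14.2, 9.68 and 11.5 in systemic cKO mice. Its highest value was 1.95 times its lowest. Genotype log2 fold changes were −0.32 topically (95% interval −0.69 to 0.053) and −0.17 systemically (−0.54 to 0.20), with adjusted p = 0.945 and 0.724.

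Ccl20 (chr1:83116766-83119167), the ligand of Ccr6 on IL-17-producing T cells and Langerhans cell precursors, varied most among the abundant members. It had 35.6, 159, 85.9, 108 and 339 CPM in topical controls, 127, 106, 109, 57.2 and 90.2 in topical cKO mice, 18.8, 16.6, 13.9, 145 and 42.3 in systemic controls and 36.1, 3.08, 19.8, 11.5 and 33.9 in systemic cKO mice. The highest library, topical control 7, was 110-fold above the lowest, systemic cKO 4. Every topical cKO library exceeded every systemic cKO library, whereas among controls systemic control 5 at 145 CPM and systemic control 6 at 42.3 CPM lay within the topical range. For the route, the log2 fold change was −2.24 in cKO mice (SE 0.72, adjusted p = 0.0565) and −1.62 in controls (SE 0.70, adjusted p = 0.113), and neither was called. The difference in cKO mice was called by DESeq2 (adjusted p = 0.0162), in the fit of only the libraries compared (0.0191) and with the replicate number as a block (0.0255). Leaving out single libraries gave no call (0.0535 to 0.124), nor did the fit with no filter (0.126). Without systemic control 5 the control difference was −2.66 with an adjusted p of 0.0088, and without topical control 7 it was −1.04 with 0.33. For genotype it was −0.57 topically (adjusted p = 0.997; 0.012 without topical control 7) and −1.19 systemically (adjusted p = 0.452; −0.15 without systemic control 5).

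Cxcl1 and Cxcl2 draw neutrophils through Cxcr2 and are neighbours on chromosome 5. Cxcl1 (chr5:90891241-90893115) stood at 5.55, 17.4, 11.4, 10.3 and 14.6 CPM in topical controls, 17.4, 13.4, 14.8, 25.2 and 10.5 in topical cKO mice, 2.49, 3.61, 2.70, 16.7 and 9.31 in systemic controls and 7.13, 2.44, 6.47, 5.25 and 8.82 in systemic cKO mice. All 5 topical cKO libraries were above all 5 systemic cKO libraries, and the highest of all 20 was topical cKO 5. In cKO mice Cxcl1 fell under systemic tamoxifen relative to topical (log2 fold change −1.46, SE 0.45, adjusted p = 0.0466; 16.2 ± 5.58 CPM topically against 6.02 ± 2.38 CPM systemically, n = 5 each). This call was lost when any of 8 of the 10 libraries was left out, with an adjusted p of 0.134 and a log2 fold change of −1.24 without topical cKO 5. The libraries whose absence kept the call were topical cKO 7 and systemic cKO 7. It was also lost with no filter (adjusted p = 0.123), with a term for satellite-like transcripts over 50 CPM (0.0649) and without the 2 libraries highest in fibroblast markers (0.141).

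In controls the route difference of Cxcl1 was not called (log2 fold change −0.77, SE 0.45, adjusted p = 0.242), and without systemic control 5 it was −1.34 with an adjusted p of 0.0269. Without systemic control 3 the adjusted p was 0.441. The genotype difference was 0.46 topically (adjusted p = 0.997) and −0.23 systemically (adjusted p = 0.869; 0.34 without systemic control 5). Neutrophil markers summed to between 1.61 and 6.68 CPM in topical cKO mice and between 0.519 and 2.01 CPM in systemic cKO mice, with 2 of the 6, Ly6g and Retnlg, at 0 throughout, and their part in the result was not tested. Topical cKO 5, highest in Cxcl1, was also the library highest in fibroblast and endothelial markers.

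Cxcl2 was lower and sparser, with 0.151 to 0.751 CPM in topical controls, 0.538 to 1.25 in topical cKO, 0.0638 to 0.802 in systemic controls and 0.122 to 0.506 in systemic cKO mice. Its route groups did not overlap in cKO mice either, without a call (log2 fold change −1.40, SE 0.54, adjusted p = 0.114), although it was called with the replicate number as a block (0.0226) and with mitochondrial percent as a covariate (0.0369). Without topical cKO 5 the adjusted p was 0.26.

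Interferon-induced chemokines attract T cells through Cxcr3. Cxcl10 (chr5:92346638-92348889) had 3.63, 7.83, 3.003, 5.998 and 8.28 CPM in topical controls, 5.37, 12.6, 12.999, 8.19 and 15.9 in topical cKO mice, 3.77, 3.12, 7.31, 3.50 and 2.99 in systemic controls and 14.6, 3.74, 7.24, 8.09 and 14.3 in systemic cKO mice. The cKO mean was above the control mean under both routes, at 11.01 ± 4.18 CPM against 5.75 ± 2.39 CPM topically and 9.59 ± 4.72 CPM against 4.14 ± 1.80 CPM systemically. The groups overlapped in both, since topical cKO 2 and 5 and systemic cKO 4 and 5 lay within the range of their controls. The difference was not called topically (log2 fold change 0.91, SE 0.37, adjusted p = 0.799) or systemically (log2 fold change 1.20, SE 0.37, adjusted p = 0.0998).

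Averaged over routes, a contrast chosen after these values were seen, the log2 fold change of Cxcl10 was 1.06 (SE 0.26, 95% interval 0.52 to 1.60). Its adjusted p was 0.115, and 0 of 13 members passed, against 0.314% of all genes. DESeq2 called the systemic difference (adjusted p = 0.0354) and the average (0.0131), and edgeR called both without systemic cKO 4 (0.0491 and 0.0302). Without systemic control 3 the adjusted p was 0.23 for each. With a term for satellite-like transcripts over 50 CPM that of the average was 0.375. The genotype effects of the routes differed by 0.29 (95% interval −0.79 to 1.37, adjusted p = 0.850), and the route differences were −0.50 in controls and −0.21 in cKO mice (adjusted p = 0.375 and 0.783; the second was 0.012 without systemic cKO 4). Cxcl10 shares 133 exonic bases with Art3 on the opposite strand.

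Cxcl9, its neighbour on chromosome 5, was near the detection floor in many libraries, with 3, 8, 3, 13 and 6 reads in topical controls, 10, 8, 13, 1 and 19 in topical cKO, 5, 4, 0, 3 and 3 in systemic controls and 26, 20, 0, 19 and 4 in systemic cKO mice. The systemic cKO group held both the highest value, in systemic cKO 2, and a library with no read. The systemic difference was not called (log2 fold change 2.29, SE 0.98, adjusted p = 0.257), nor was the average over routes (log2 fold change 1.53, SE 0.66, adjusted p = 0.568). Cxcl11 was not detected: it had 10, 1, 2, 0 and 0 reads in systemic cKO mice and at most 2 in any library of the other groups.

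Ccl21a (chr4:42772860-42773993, minus strand) is a ligand of Ccr7, a receptor of dendritic cells. It had 6.002, 5.42, 9.08, 3.36 and 7.54 CPM in topical controls, 19.3, 12.2, 12.9, 25.2 and 15.9 in topical cKO mice, 2.43, 5.06, 1.05, 10.9 and 16.5 in systemic controls and 5.46, 3.08, 2.92, 3.35 and 2.19 in systemic cKO mice. All topical cKO libraries were above all topical controls and above all systemic cKO libraries. Systemic controls spread widest, from 1.05 in replicate 4 to 16.5 in replicate 6, and covered the whole systemic cKO range. Ccl21a fell under systemic tamoxifen in cKO mice (log2 fold change −2.36, SE 0.49, adjusted p = 0.00353; 17.1 ± 5.32 CPM topically against 3.40 ± 1.23 CPM systemically, n = 5 each).

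The topical genotype difference of Ccl21a was not called (log2 fold change 1.45, SE 0.46, adjusted p = 0.609) although the groups did not overlap, as was so for 1.40% of all genes. A fit of the topical libraries alone called it, at an adjusted p of 0.0343. With the replicate number as a block its adjusted p was 0.979. The systemic difference had the opposite sign (log2 fold change −1.13, SE 0.48, adjusted p = 0.256). The difference between these effects was not called in edgeR (log2 fold change −2.58, SE 0.67, adjusted p = 0.0841), and was called in DESeq2 (0.0135) and without systemic control 1, systemic control 4 or systemic cKO 2 (0.0272 to 0.0359). Leaving out any other library gave no call, with an adjusted p of up to 0.172 without systemic cKO 5. In controls the route difference was 0.22 (adjusted p = 0.774), and −0.38 without systemic control 6.

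Endothelial markers are given beside Ccl21a. Lyve1, a lymphatic endothelial receptor, averaged 1.04 ± 0.833 CPM in topical controls and 1.62 ± 1.04 CPM in topical cKO mice, and 0.527 ± 0.474 CPM and 0.433 ± 0.0850 CPM in the systemic control and cKO groups. For route in controls, the log2 fold change of Lyve1 was −0.86 and that of Ccl21a 0.22, and neither was called. For route in cKO mice, where Ccl21a was called, it was −1.92 for Lyve1 (adjusted p = 0.0609) and −1.43 for Pecam1 (0.0759). The other endothelial markers tested were Kdr (−0.92), Cdh5 (−0.71) and Vwf (−0.45), and none of the 5 was called. For genotype, Lyve1 was at 0.64 topically and −0.42 systemically, without a call. The sum of 6 endothelial markers had a median of 5.49 CPM in topical cKO mice (2.04 to 10.9) and of 1.92 CPM in systemic cKO mice (1.32 to 4.40), none of the 6 being at 0 throughout a group. In topical controls this median was 5.09 CPM (1.67 to 7.37), close to that of topical cKO mice, beside the lower Ccl21a. The sum was highest in topical cKO 5 (10.9) and systemic control 6 (9.73), which were also highest in Ccl21a within their groups. Without these 2 libraries, a setting chosen after the values were seen, Ccl21a in cKO mice was −2.18 (adjusted p = 0.00389), the topical genotype difference 1.27 (0.929) and the systemic one −0.53 (0.696). Among Langerhans and dendritic cell markers, Cd74 and H2-Aa had log2 fold changes of 0.93 and 0.79 for route in cKO mice, without a call (adjusted p = 0.0621 and 0.0978). The part of endothelial or dendritic cell RNA in these values was not tested.

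The Ccl21a counts are uncertain in another way: 71.6% of its 50-base stretches also occur in 4 other annotated genes. The copies listed as Ccl21b and Ccl21d had no read in any library. Ccl19, the other ligand of Ccr7, was not detected, and 12 of its 19 reads were in topical control 7.

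Cxcl12 (chr6:117168535-117181367) had 2.77, 2.21, 3.003, 3.999 and 4.18 CPM in topical controls, 2.86, 4.73, 3.46, 5.82 and 4.44 in topical cKO mice, 4.72, 4.90, 9.61, 6.65 and 5.81 in systemic controls and 6.25, 3.30, 3.16, 4.30 and 6.13 in systemic cKO mice. All systemic controls were above all topical controls, and the cKO groups overlapped with each other. Cxcl12 rose in systemic relative to topical controls (log2 fold change 0.96, SE 0.26, adjusted p = 0.0122; 6.34 ± 1.99 CPM against 3.23 ± 0.835 CPM, n = 5 each), where the groups of 13.8% of all genes did not overlap. In cKO mice the route difference was 0.090 (95% interval −0.44 to 0.62, adjusted p = 0.870; −0.031 to −0.038 without topical cKO 2, systemic cKO 2 or systemic cKO 7). The difference between the 2 route effects was not called (log2 fold change −0.87, SE 0.36, adjusted p = 0.272).

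Fibroblast markers, from cells known to make much Cxcl12, had a median sum of 4.16 CPM in topical controls and 1.91 CPM in systemic controls (1.45 to 9.88 and 1.37 to 20.8), whereas the mean sum was lower in topical controls, at 4.65 ± 3.15 CPM against 6.57 ± 8.26 CPM (SD, n = 5 each). Of the 4 fibroblast markers tested, none was called, with log2 fold changes of 1.16 for Col3a1, 1.08 for Col1a1, 0.23 for Col1a2 and −0.29 for Dcn. Endothelial sums had medians of 5.09 and 2.22 CPM and means of 4.80 and 3.60 CPM. Without the 2 libraries highest in fibroblast markers the log2 fold change of Cxcl12 was 1.002 (adjusted p = 0.0191). Of all 29 markers tested, 3 were called in this comparison and all were higher in systemic controls: the basal keratinocyte keratin Krt15 (log2 fold change 1.25, adjusted p = 0.00922), the desmosomal cadherin Dsg3 (0.77, 0.0254) and the melanocyte gene Pmel (0.77, 0.0142). The part of these cells in the Cxcl12 difference was not tested. Satellite-like transcripts separated the same groups, at 79.4 to 11674 CPM in systemic controls and 0.839 to 13.9 CPM in topical controls. With their log2 level as a covariate the fold change was 0.64 (adjusted p = 0.450), and with a term for libraries over 50 CPM it was 0.38 (0.984). In the first fit 0.982% of all genes remained called in this comparison. In the second fit 1 of all 12424 genes did, since all systemic controls and no topical control exceed 50 CPM.

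The monocyte attractants lie together on chromosome 11 with Ccl1, Ccl8, Ccl11 and Ccl12. Ccl2, the main ligand of Ccr2, stood at 1.37, 1.84, 1.62, 2.17 and 1.13 CPM in topical cKO mice and 1.06, 0.269, 0.562, 0.253 and 1.44 CPM in systemic cKO mice. The ranges of these groups overlapped, and the route difference was not called (log2 fold change −1.28, SE 0.44, adjusted p = 0.0737). It was called by DESeq2 (adjusted p = 0.0391), with mitochondrial percent as a covariate (0.0495) and without systemic cKO 7 (0.022). Without topical cKO 5 the adjusted p was 0.18, and without the 2 libraries highest in fibroblast markers it was 0.192. The route effects of the genotypes differed by −1.36 (SE 0.62, adjusted p = 0.319). Topical controls had 0.757 to 1.63 CPM and systemic controls 0.377 to 2.17 CPM. Ccl7 had 19, 42, 39 and 39 reads in topical control, topical cKO, systemic control and systemic cKO mice in all, with 3 or more in 16 libraries.

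Ccl1, a ligand of Ccr8 on T cells, and Ccl8, which draws Ccr8-bearing cells in mice, had reads mainly in topical mice. Ccl1 had 3, 3, 1, 5 and 17 reads in topical controls and 6, 7, 0, 9 and 9 in topical cKO mice, against 1, 0, 0, 0 and 2 in systemic controls and 2, 0, 0, 1 and 0 in systemic cKO mice. Ccl8 had 0, 10, 2, 3 and 6 and 1, 4, 2, 7 and 0 reads in the topical groups and 0, 0, 0, 1 and 0 and 0, 0, 0, 1 and 0 in the systemic groups. No systemic library reached 3 reads of either. Both fell below the low-count filter. Since both counted as detected through topical libraries alone, no test of the route is given for them.

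**Figure D4:**
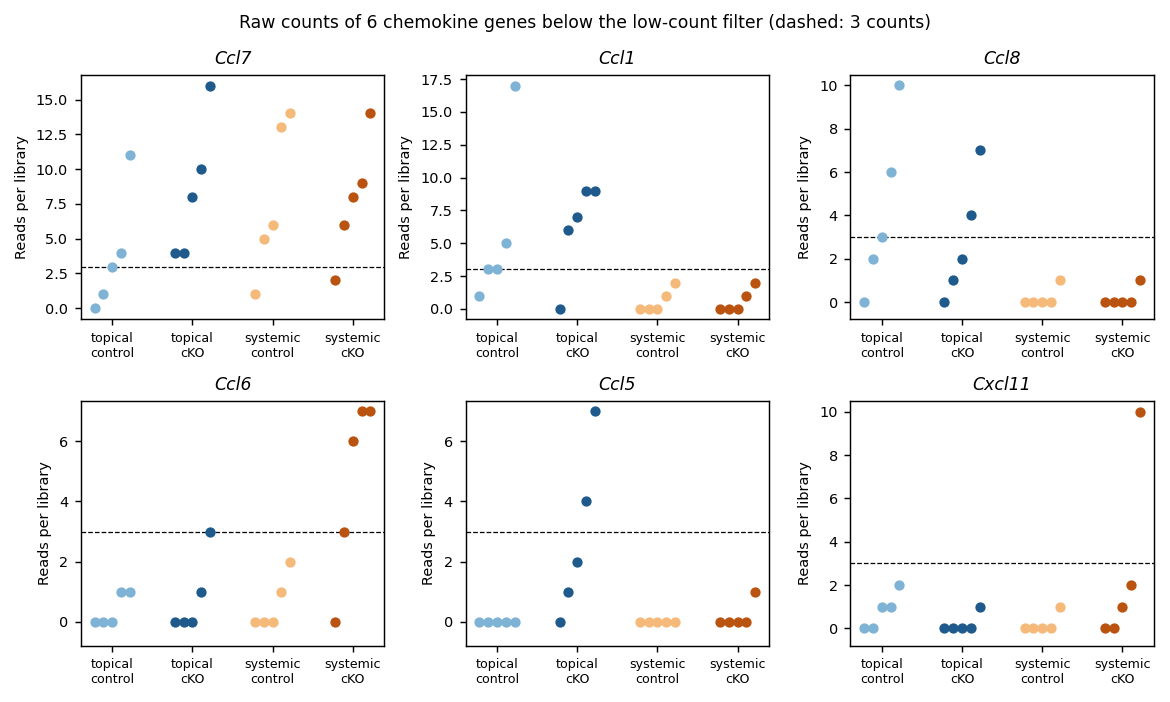
Reads per library of 6 members below the low-count filter, with 5 mice per group and a dashed line at 3 reads. Ccl1 and Ccl8 reach 3 reads in topical libraries alone, and Ccl6 does so in 4 systemic cKO libraries and 1 topical cKO library.

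Ccl6, a myeloid chemokine, had 32 reads in all, of which 0, 3, 7, 7 and 6 were in systemic cKO mice. The other groups held 2, 4 and 3 reads, and no genotype or route difference was called for it in the fit with no filter. Ccl25, the ligand of Ccr9, was present in all libraries between 0.538 and 1.68 CPM. Its group means were 0.908 ± 0.255 CPM, 0.940 ± 0.333 CPM, 1.20 ± 0.361 CPM and 1.16 ± 0.198 CPM in the order above, none of the comparisons was called, and 204 of its exonic bases overlap Elavl1 on the opposite strand. Ccl28, an epithelial ligand of Ccr10, had 26, 22, 15 and 13 reads in the 4 groups.

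At the detection limit, Ccl8 and Ccl6 were just inside with 5 libraries, and Ccl5 and Ccl27b were just outside with 2 libraries each. Ccl5, which T cells and other leukocytes secrete, had 14 of its 15 reads in topical cKO mice (0, 7, 2, 1 and 4), where T-cell markers summed to 0.0689 to 0.284 CPM. Ccl22 had 6 and 5 reads in the topical groups and 0 in both systemic groups. The other undetected members with reads were Ccl3, Ccl9, Ccl11, Ccl12, Ccl17, Ccl26, Cxcl3, Cxcl13, Cxcl15 and Cxcl17, with at most 3 reads in a library. Ccl4, Ccl24 and Cxcl5 had no read in any library, which allows up to 3 reads, or 0.0599 to 0.259 CPM, in each. Ccl21b and Ccl21d had no read either, but 100.0% and 97.1% of their 50-base stretches occur in other genes and the treatment of shared reads is not given in the sources used here, so no limit is set for them.

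Receptors and regulators of chemokines were read from lists of the pathway. Of 19 typical chemokine receptors, 3 passed the filter: Ccr4, Ccr9 and Cxcr2. All 5 atypical receptors, which take up chemokines without signalling through G proteins, passed, as did 10 of 10 genes of NF-kappaB and IL-17 feedback, 4 of 6 interferon-gamma response genes, 8 of 10 inducing cytokines and their receptors, and 4 of 5 proteases. None of these was called for genotype topically or for the difference between the genotype effects.

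Ackr4, the scavenger of Ccl19, Ccl21 and Ccl25, was the 1 partner called for genotype under systemic tamoxifen, where it rose from 26.4 ± 3.15 CPM to 44.1 ± 15.1 CPM (log2 fold change 0.74, SE 0.19, adjusted p = 0.0435). That call was lost without any of 8 of the 10 libraries compared (systemic controls 1, 3, 4, 5 and 6 and systemic cKO 4, 5 and 6), at an adjusted p of up to 0.133.

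For route, Ackr3, the scavenger of Cxcl12, was lower in systemic mice of both genotypes (log2 fold change −0.74, SE 0.19, adjusted p = 0.0104 in controls; log2 fold change −0.69, SE 0.19, adjusted p = 0.0234 in cKO mice). Its mean in controls was 27.1 ± 6.55 CPM topically and 16.3 ± 3.08 CPM systemically. The cKO call was lost without topical cKO 7 or systemic cKO 2, 6 or 7, at an adjusted p of up to 0.0686. Ccr4, the receptor of Ccl17 and Ccl22, fell in systemic controls (log2 fold change −1.05, SE 0.23, adjusted p = 0.00362), while its ligands were not detected.

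In controls the cytokine Tnf fell (log2 fold change −1.79, SE 0.55, adjusted p = 0.0276), while Nfkbiz, which encodes a cofactor of NF-kappaB (log2 fold change 0.89, SE 0.31, adjusted p = 0.0469) and the IL-17 receptor subunit Il17ra (log2 fold change 0.54, SE 0.14, adjusted p = 0.0103) rose in systemic mice. The Tnf call was lost without topical control 3 or 7 or systemic control 1, 3, 4 or 6 (adjusted p up to 0.119). The Nfkbiz call was lost without topical control 1, 5, 6 or 7 or systemic control 3, 4 or 5 (up to 0.158). In cKO mice, systemic libraries had more Ccr9, the receptor of Ccl25 (log2 fold change 0.95, SE 0.29, adjusted p = 0.0431), and more Adam17, a protease that sheds Cx3cl1 and Cxcl16 (log2 fold change 0.53, SE 0.13, adjusted p = 0.00982). The Ccr9 call was lost without topical cKO 2, 3, 5 or 7 or systemic cKO 4, 5, 6 or 7 (adjusted p up to 0.128), without the 2 libraries highest in fibroblast markers (0.132) and with the replicate number as a block (0.105), whereas the Adam17 call held without each library in turn. With a term for satellite-like transcripts, none of the calls in controls held, nor that of Ackr4, and the Ackr3 call in cKO mice was lost with the term for libraries over 50 CPM (adjusted p = 0.0552). For route in controls, 122 of all 12424 genes were called with the log2 level and 1 with the term over 50 CPM. For systemic genotype, 0 were called with either. These fits kept few calls of any gene, since satellite-like level separated the control groups, so they do not decide about these partners.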

How the data were processed

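Bulk RNA-seq libraries, SmartSeq II per the labels' protocols, were made from 2000000 sorted keratinocytes per mouse. The authors deposited raw read counts per gene for 20 mice, as whole numbers without normalization. STAR, featureCounts and the builds GRCm38 and mm10 are named, without versions, per the submitters' processing notes; strand and multi-mapping settings are not given in the sources used here.

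All 20 libraries were fitted together in edgeR 4.0.16 (R 4.3.3) with TMM factors, filterByExpr (minimum count 10, minimum total count 15; 12424 genes kept), robust quasi-likelihood dispersion and 1 coefficient per group. P-values of two-sided F tests received Benjamini-Hochberg adjustment over these genes, with a call at an adjusted p under 0.05. There were 5 planned contrasts and 1 added. CPM of genes are TMM-scaled, and marker and satellite-like sums use the library total. On simulated data for the topical comparison, 175 of 200 genes changed by a log2 value of 1.5 among 12424 were called, with 8 unchanged genes.

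Members, partner lists and marker lists were chosen with earlier results of these data known. Full values are given for members called in any contrast and for the 8 with the highest mean CPM; other detected members are given by ranges or counts, and partners are named where called. Other members and libraries singled out were chosen after their values were seen. Gene models came from GENCODE M21 on GRCm38, which holds all 38 members; promoters came from RefSeq.

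Alternatives were DESeq2 1.42.0 (size factors, Wald test), no filter, only the libraries compared, replicate number as a block, satellite-like level (12 predicted genes) or mitochondrial percent as a covariate, leaving out each library, and, added later, leaving out the 2 libraries highest in fibroblast markers. Counts carry no molecular identifiers, so floors cover counting error only.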

Additional observations from a re-analysis of the deposited data

Results flagged for a closer look

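Within groups of 5, the highest or lowest mouse was set against the others for each of the 13 tested members by Dixon's test at the 95% level. Of 52 groups, 5 had such a value, each the highest of its group. For normally distributed values chance gives about 1 in 20. These CPM were not log-transformed and the members share libraries, so 5 is not read as an excess. Cxcl14 stood at 868 CPM in systemic control 4, with the next at 308. Systemic control 4 also had the highest Cxcl10 of its group, at 7.31 CPM, with the next at 3.77. Ccl20 stood at 145 CPM in systemic control 5, with the next at 42.3. Cxcl16 stood at 315 CPM in topical cKO 4, with the next at 207. Cxcl2 stood at 0.802 CPM in systemic control 6, with the next at 0.214, and that library was also the highest of its group in fibroblast markers, at 20.8 CPM.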

How the results depend on the processing

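The number of members called moved from 0 to 1 topically in the fit of the libraries compared alone (0.185% of all genes), and from 0 to 1 systemically (4.78%) and in the difference between routes (2.69%) with the DESeq2 Wald test. Leaving out single libraries gave 0 topically (0.0805% to 0.153% of all genes). It gave 0 to 1 systemically (0.644% to 6.37%) and in the difference between routes (0.129% to 3.81%). For route in controls, the count of 1 became 2 without the 2 libraries highest in fibroblast markers (13.1% of all genes). It became 0 with the satellite-like log2 level (0.982%) or the term over 50 CPM (0.00805%), against 18.3% in the main fit. Without single libraries it was 1 to 3 (11.8% to 20.3%), with 3 without systemic control 5 (17.8%) and 2 without systemic control 6 (13.5%). With no filter Cxcl12 kept its call (8.61%). That fit gave a value to 33 members, among them Ccl1 and Ccl8, which were detected through topical libraries alone, so no count is given for it. For route in cKO mice, the count of 2 became 5 with DESeq2 (12.4% of all genes, against 9.22% in edgeR). It was 4 with mitochondrial percent (13.8%) and 3 in the fit of only the libraries compared (6.39%). It was 1 with no filter (4.18%, with a value for 33 members), with a term for satellite-like level over 50 CPM (8.49%) and without the 2 fibroblast-high libraries (5.91%). Without single libraries it was 1 to 3 (5.99% to 9.78%). Ccl21a was called in this contrast in every setting run (adjusted p from 2.95e-05 to 0.0149). Cxcl12 in controls was called without each single library (0.00892 to 0.0459). The number of detected members was 14 at 10 or more counts in 5 libraries, 15 at 3 or more counts in 10 libraries, 16 at 0.25 CPM in 5 libraries, and 16 to 18 without single libraries.

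Of 415 fold changes recomputed under other settings, 360 kept direction and side of the threshold, 30 lost and 12 gained a call, and 13 turned sign. Of 530 without single libraries, these numbers were 467, 41, 9 and 13. The signs that turned with a term for the replicate number were Ccl27a (−0.10) and Cxcl14 (−0.31) topically, Cxcl16 systemically (−0.085), and Ccl21a in controls (−0.0074) and Cxcl12 in cKO mice (−0.0025) for route. With satellite-like level over 50 CPM, they were Cxcl1 systemically (0.034), Ccl21a in controls (−0.69) and Cxcl12 in cKO mice (−0.038), and with its log2 level Cxcl1 systemically (0.13) and Ccl21a in controls (−0.55). With mitochondrial percent it was Ccl27a systemically (0.26), and without the 2 fibroblast-high libraries Cxcl16 systemically (−0.045) and Ccl21a in controls (−0.38). Ranges without single libraries that cross 0 were, topically, −0.82 to 0.012 for Ccl20, −0.018 to 0.54 for Ccl27a and −0.028 to 0.53 for Cxcl14; systemically, −0.40 to 0.16 for Ccl27a, −0.44 to 0.34 for Cxcl1 and −0.050 to 0.21 for Cxcl16; and for route, −0.38 to 0.49 for Ccl21a in controls, and −0.40 to 0.012 for Cxcl10 and −0.038 to 0.24 for Cxcl12 in cKO mice. The cause was not tested.

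The replicate numbers did not pair the samples: over 14 pairs of libraries with the same number, correlations of deviations from the group means ran from −0.31 to 0.34, 6 were above 0.1, and 2 libraries correlated best with their own number. With the replicate number as a block, 4 members were called for route in cKO mice (Ccl20, Ccl21a, Cxcl1 and Cxcl2), against 7.54% of all genes, and Cxcl12 kept its call. The count in the genotype contrasts stayed at 0, against 0.0724% of all genes topically, 2.32% systemically and 0 for the difference. Levels under 3 reads, or 0.0599 to 0.259 CPM by library, were not detectable at this depth.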

Other observations

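Several chemokines varied among mice of the same group more than most genes did. The SD of log2 CPM within groups was 1.30 for Cxcl9 and 1.19 for Ccl20, above 99.4% and 99.0% of the 12424 genes tested, whose median was 0.346. It was 0.925 for Cxcl14, 0.883 for Ccl21a, 0.853 for Ccl27a and 0.792 for Cxcl1, above 94.0% of genes or more. Cx3cl1 was at 0.296, above 38.3%, and Cxcl12 at 0.409, above 62.9%. Of the 5 libraries highest in Ccl20 and the 5 highest in Cxcl1, 4 were shared (topical control 3, topical cKO 2, topical cKO 4 and systemic control 5). For Ccl27a and Cxcl14, 3 of 5 were shared. Depth and gene length differ among these genes, and these values are a description of the libraries.

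Detection was uneven among neighbouring members on the genome. In the run on chromosome 11 from Ccl2 to Ccl1 (82035571 to 82305690, GRCm38), 4 of 6 members were detected, against 1 of 5 in the run with Ccl5, Ccl9, Ccl6, Ccl3 and Ccl4 (83525778 to 83664683). On chromosome 5, 2 of 5 members were detected between 90759360 and 90905938 (Cxcl1 and Cxcl2, but not Cxcl3, Cxcl5 or Cxcl15), and 2 of 3 between 92321347 and 92365485 (Cxcl9 and Cxcl10, but not Cxcl11). Between Ccl22 and Ccl17 on chromosome 8, Cx3cl1 was the 1 of 3 detected.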
